A study of Mus musculus with 6 samples.

Results

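The 50 genes described here encode the proteins that mark replication origins, load and switch on the replicative helicase, and copy, join and repackage DNA at the fork. They were chosen by their known role, with earlier results of these data in view though not by a measured value, and each was found on the array through the RefSeq accession of its probe. Of the 50 genes, 48 were tested among 13582 genes in all. The other 2, Orc1 and Cdc7, were not well above background on all arrays of either group.

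RNA came from livers of male C57BL/6J mice, of an age not given in the sources used here, and was measured on 6 single-colour Agilent arrays. PVBL mice had the left portal vein branch tied off, and their right lobe was taken as regenerating liver 3 days later. The controls had sham surgery and were sampled after the same 3 days. Each group had 3 samples, numbered 1 to 3. The labels do not say whether samples were single animals or pools, so p-values rest on the variation among these samples, part of which may be technical.

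DNA replication starts in 2 separate steps. In G1 the origin recognition complex (ORC) works with CDC6 and CDT1 to load the inactive MCM helicase, and at the start of S phase the kinase of CDC7 and DBF4 together with cyclin-dependent kinases brings in CDC45 and the GINS complex to switch it on. Primase and polymerase alpha then start each strand, polymerase epsilon copies the leading and polymerase delta the lagging strand, and chromatin and its methylation are restored behind the fork. In adult liver most hepatocytes rest outside the cell cycle. Those in the remaining tissue enter it when other liver tissue is lost or is cut off from portal blood.

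Promoter stretches are shown first, because letters of the E2F site, to which factors that switch on genes of S phase bind, were more frequent among these genes than among all genes and played no part in their choice. RefSeq promoter windows (build GRCm38.p6) were at hand for 41 of the 50 genes, all but Gmnn, Gins1, Gins2, Gins4, Recql4, Prim2, Pole, Rfc2 and Tipin. The 250 bases before each start site were searched on both strands for TTTCGCGC, TTTGGCGC, TTTCCCGC and TTTGCCGC, counted as 1 motif. None of these strings contains either of the other motifs searched. At least 1 match stood in 9 of the 41 genes (22.0%), against 2.16% of the 27025 genes with a promoter window and 1.86% of all windows. Each stretch below reads 5′ to 3′ on the gene's own strand, lies wholly before the start site, and has the matched letters in capitals. The first 5 belong to genes that rose in PVBL, the next 3 to genes with no call, and the last to a gene too dim to test.
Cdc6: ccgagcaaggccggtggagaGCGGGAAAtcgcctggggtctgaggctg
Uhrf1: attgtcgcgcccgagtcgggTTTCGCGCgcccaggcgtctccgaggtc
Dnmt1: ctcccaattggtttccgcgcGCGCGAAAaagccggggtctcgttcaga
Pola1: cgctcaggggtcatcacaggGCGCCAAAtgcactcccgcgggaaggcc
Rfc3: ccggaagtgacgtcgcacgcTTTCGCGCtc
Orc3: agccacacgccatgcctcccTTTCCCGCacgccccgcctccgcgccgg
Gins3: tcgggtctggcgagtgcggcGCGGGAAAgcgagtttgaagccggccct
Pole4: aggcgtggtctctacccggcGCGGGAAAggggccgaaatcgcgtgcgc
Orc1: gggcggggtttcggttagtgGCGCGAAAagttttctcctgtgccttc
The stretches lie, in GRCm38.p6, as follows: Cdc6 at chr11:98907993-98908040 on the + strand, Uhrf1 at chr17:56304108-56304155 on the + strand, Dnmt1 at chr9:20952815-20952862 on the - strand, Pola1 at chrX:93632266-93632313 on the - strand, Rfc3 at chr5:151651209-151651238 on the - strand, Orc3 at chr4:34614956-34615003 on the - strand, Gins3 at chr8:95633498-95633545 on the + strand, Pole4 at chr6:82652881-82652928 on the - strand, and Orc1 at chr4:108579407-108579453 on the + strand. The letters were found in 5 of the 25 genes called higher that had a window (20%) and in 3 of the 14 that were not called (21.4%). Searched the same way, the letters TTTGAA, the cell cycle homology region of genes expressed late in the cycle, stood in 6 of the 41 genes (14.6%) against 18.3% of all genes, and the CCAAT box in 21 (51.2%) against 37.5%. A match is a description of these letters and no evidence of binding.

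Most of the replication genes were higher in the regenerating lobe and none was called lower. In limma with Benjamini-Hochberg adjustment over all genes, 33 of the 48 tested passed the adjusted p threshold of 0.05, each of them higher in PVBL (68.8%), against 15.1% of all genes called higher, 17.8% called lower and 33% called either way. The median log2 difference of the 48 was 1.21, against -0.10 for all genes tested. It was 1.16 with the 3 genes dark in sham set at their lower bound. With those bounds, on the scanner's signal, 26 of the 33 differed at least 2-fold, 15 at least 4-fold and 5 at least 8-fold. The 5 genes Cdc6, Pole2, Clspn, Uhrf1 and Pola2 were in the test only through their PVBL signal, being well above background on fewer than 3 sham arrays. Of the 43 that were above background on all 6 arrays, 29 were called higher (67.4%). In 37 of the 48 genes (77.1%) every PVBL value lay above every sham value, against 22.3% of all genes.

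**Figure D1:**
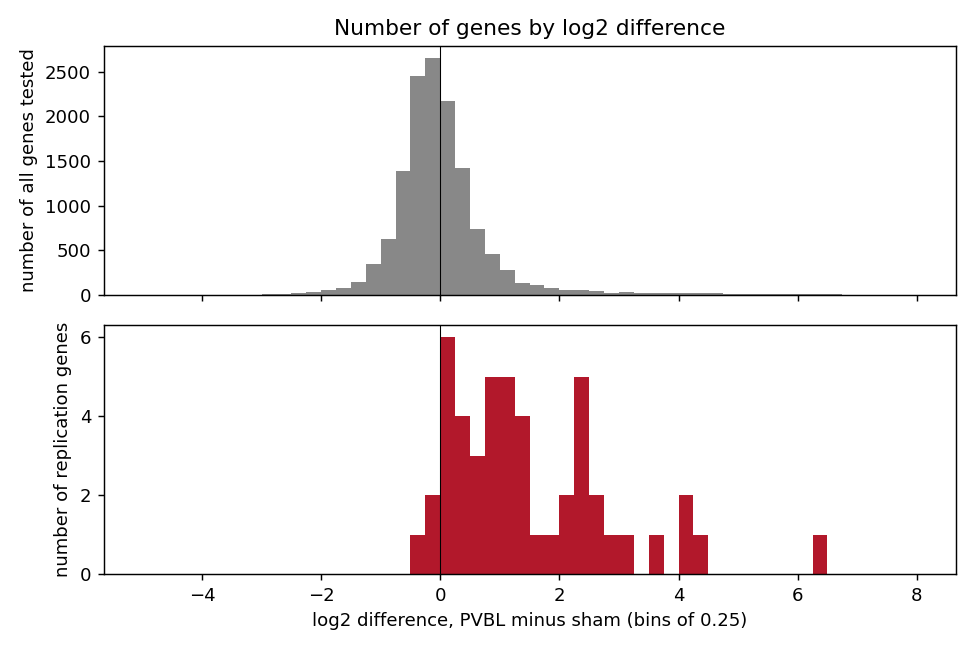
Number of genes (vertical axis) by log2 difference between PVBL and sham (horizontal axis), for all 13582 genes tested (grey) and the 48 replication genes (red). The bulk of all genes lies around 0, with a median of -0.10, while the replication genes reach from -0.30 to 6.49.

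Levels are log2 signals relative to each array's 75th percentile, so a level of 0 is that percentile, and levels of different genes are not compared because each probe binds its own target differently. Each array had between 48.0% and 53.6% of its probes well above background, with a 75th percentile of 203 to 407 signal units and no saturated spot. Some values below are also given under other settings: scaling on the median, on quantiles or on spike-in probes, normexp background correction, weights for array quality, and the leaving out of 1 array. All arrays lay on 1 slide, with sham in row 1 and PVBL in row 2, which means that an effect of the row and one of the surgery cannot be told apart. The hepatocyte markers Alb, Apoa1, Ttr, Serpina1a, Tat and Hnf4a were above background on all arrays, with none of the 6 called and a summed signal, in units of the array's 75th percentile, of 3191 to 4258 in PVBL and 4388 to 4947 in sham. Of 6 biliary markers, 5 were tested (Epcam was below background), 3 rose (Krt19, Krt7 and Spp1) and 1 fell (Cftr), with summed signals of 6.86 to 21.3 in PVBL and 1.92 to 4.26 in sham. Of 6 mesothelial markers, 5 were tested (Lrrn4 was below background) and 1 rose, Krt8, a keratin not particular to mesothelial cells. The median log2 difference of the 5 was 0.49. Their summed signals, which include Krt8, were 117.7 to 172.7 in PVBL and 32.4 to 34.5 in sham. Col1a1 rose and Lrat fell among 6 stellate cell markers (90.2 to 99.0 in PVBL and 106.1 to 116.5 in sham), and Marco rose among 6 Kupffer cell markers (90.1 to 240.3 in PVBL and at most 124.0 in sham). Falls were called for Clec4g and Oit3 of 6 sinusoidal endothelial markers (45.0 to 67.0 in PVBL and 104.3 to 110.6 in sham), for Cd3g and Cd8a of 5 T and NK cell markers (39.4 to 74.7 in PVBL and 64.2 to 84.2 in sham), and for Klf1, Alas2 and Epor of 5 erythroid markers tested (178.6 to 690.7 in PVBL and 355.3 to 460.3 in sham). No call was made for 5 B cell markers tested (1.14 to 1.59 in PVBL and 1.38 to 1.70 in sham, with Pax5 below background) or 4 neutrophil markers tested (79.4 to 102.8 in PVBL and 94.9 to 112.3 in sham, with Mpo below background). The called markers are named here after their values were seen. The part of these cell types in the values that follow was not tested, and in a whole lobe a change in the share of cells and in RNA per cell cannot be told apart.

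**Figure D2:**
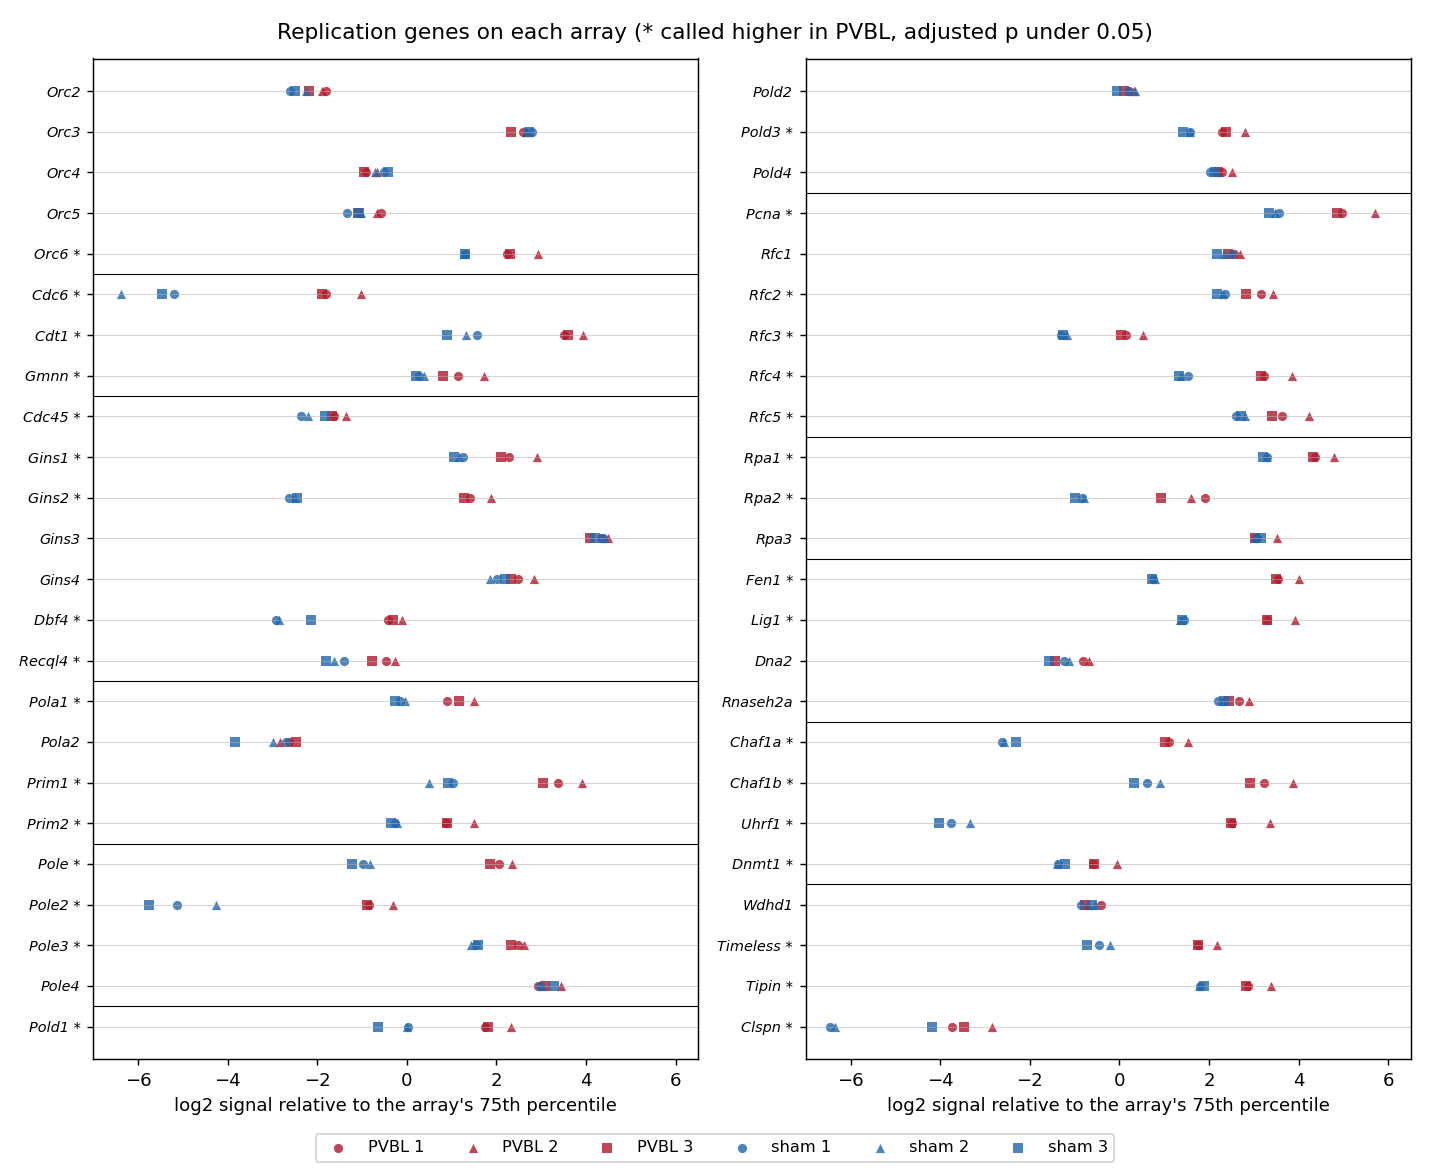
Log2 signal relative to the array's 75th percentile (horizontal axis) of the 48 tested replication genes (rows, in the order of their roles, black lines between roles) on each of the 3 PVBL arrays (red) and 3 sham arrays (blue). Uhrf1, Chaf1a and Gins2 are the widest separated genes that are above background on at least 2 sham arrays, while Gins3, Pole4, Wdhd1 and Pold2 lie with red and blue points mixed.

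Among the origin recognition genes, whose products bind origins as a 6-subunit complex, only the subunit gene Orc6 was called. Its levels were 2.25, 2.93 and 2.31 in PVBL 1 to 3 and 1.29, 1.27 and 1.29 in sham 1 to 3, so every PVBL value lay above the sham values, which were close to one another. It rose 2.32-fold (log2 difference 1.21 ± 0.20, SE, n = 3 per group, adjusted p = 0.00481). Orc2, another subunit gene, had PVBL values of -1.79, -1.90 and -2.17 and sham values of -2.61, -2.24 and -2.49, which do not overlap. It missed the threshold narrowly (log2 difference 0.49 ± 0.16, adjusted p = 0.0501, 95% interval 0.12 to 0.86). It passed with median or quantile scaling (0.62 and 0.56), with array weights (0.64) and without PVBL 3 (0.60). At the same difference it also passed with only probes above background on all arrays or the mean over probes. Orc3, Orc4 and Orc5 were not called, at log2 differences of -0.20, -0.30 and 0.36, and with spike-in scaling the first pair stood at 0.21 and 0.11. Orc5 passed the threshold with array weights (0.58) and without PVBL 3 (0.52), and Orc4 was called lower with array weights (-0.34). The other Orc4 probe, tested alone in the main setting, stood at 0.0068 and was not called. At its brightest probe Orc3 was the 1 gene of the 48 with every PVBL value below every sham value, by a gap of only 0.010. At the other Orc3 probe the groups overlapped (log2 difference -0.42). The share of all genes with PVBL below sham was not counted. Orc1, the ATPase subunit whose level changes over the cell cycle in many cells, was above background on 1 PVBL array and no sham array, with levels of -4.15, -3.58 and -3.93 against -6.41, -6.30 and -6.02, and no fold is given.

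All 3 licensing genes rose. Cdc6, which loads the helicase together with ORC, was above background on every PVBL array and on no sham array, with levels of -1.80, -1.02 and -1.90 against -5.20, -6.39 and -5.46. No PVBL value came near the sham values. On the scanner's signal the fold was at least 6.27 (adjusted p = 0.000360). For it the PVBL mean was set against the higher of the sham signal and the lowest signal that counted as well above background. The bound depends on the background correction, and normexp gave 2.09-fold. A further Cdc6 probe, also dark in sham, was called higher too, at a smaller fitted log2 difference (2.47 against 4.11). Cdt1, the other loading factor, had levels of 3.50, 3.93 and 3.59 in PVBL and 1.56, 1.32 and 0.89 in sham, rising 5.34-fold (log2 difference 2.42 ± 0.21, SE, n = 3 per group, adjusted p = 0.000324). Geminin (Gmnn), which binds CDT1 and blocks a second round of loading, had levels of 1.15, 1.73 and 0.81 against 0.27, 0.38 and 0.21 and rose 1.92-fold (log2 difference 0.94 ± 0.23, SE, n = 3 per group, adjusted p = 0.0209). Its groups did not overlap, but leaving out any 1 sham array (0.91 to 0.99), or the filter on dim probes, ended the call.

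The genes of helicase activation moved unequally. Gins2, a subunit of the 4-part GINS complex, had levels of 1.41, 1.89 and 1.28 in PVBL and -2.62, -2.49 and -2.46 in sham, a rise of 16.5-fold (log2 difference 4.05 ± 0.18, SE, n = 3 per group, adjusted p = 1.45e-05). Gins1 of the same complex rose 2.42-fold (adjusted p = 0.00535). Gins4 missed the threshold (log2 difference 0.53 ± 0.17, adjusted p = 0.0531, 95% interval 0.12 to 0.94) and passed it with normexp background correction (0.63), with median or quantile scaling (0.66 and 0.52), with array weights (0.52), among probes above background on all arrays (0.53) and without PVBL 3 (0.64). Gins3 had overlapping groups, with 4.33, 4.50 and 4.10 in PVBL and 4.39, 4.41 and 4.19 in sham (log2 difference -0.019 ± 0.15, adjusted p = 0.927, 95% interval -0.36 to 0.33). The 4 subunit genes of 1 complex thus ran from no call to a rise of over 4 log2 units. Dbf4, the regulatory subunit of the CDC7 kinase, rose 5.12-fold (log2 difference 2.36 ± 0.22, SE, n = 3 per group, adjusted p = 0.000535), with levels of -0.43, -0.11 and -0.32 against -2.91, -2.86 and -2.15. For its partner Cdc7 neither of 2 probes was above background on more than 1 array. Recql4, a helicase of initiation, rose 2.17-fold (adjusted p = 0.00432). Cdc45, whose protein joins GINS at the helicase, was called with a small rise (log2 difference 0.58 ± 0.18, SE, n = 3 per group, adjusted p = 0.0404). That call was lost with normexp (0.16), without the dim-probe filter, and without PVBL 1, PVBL 2, sham 1 or sham 2 (0.47 to 0.62).

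**Figure D3:**
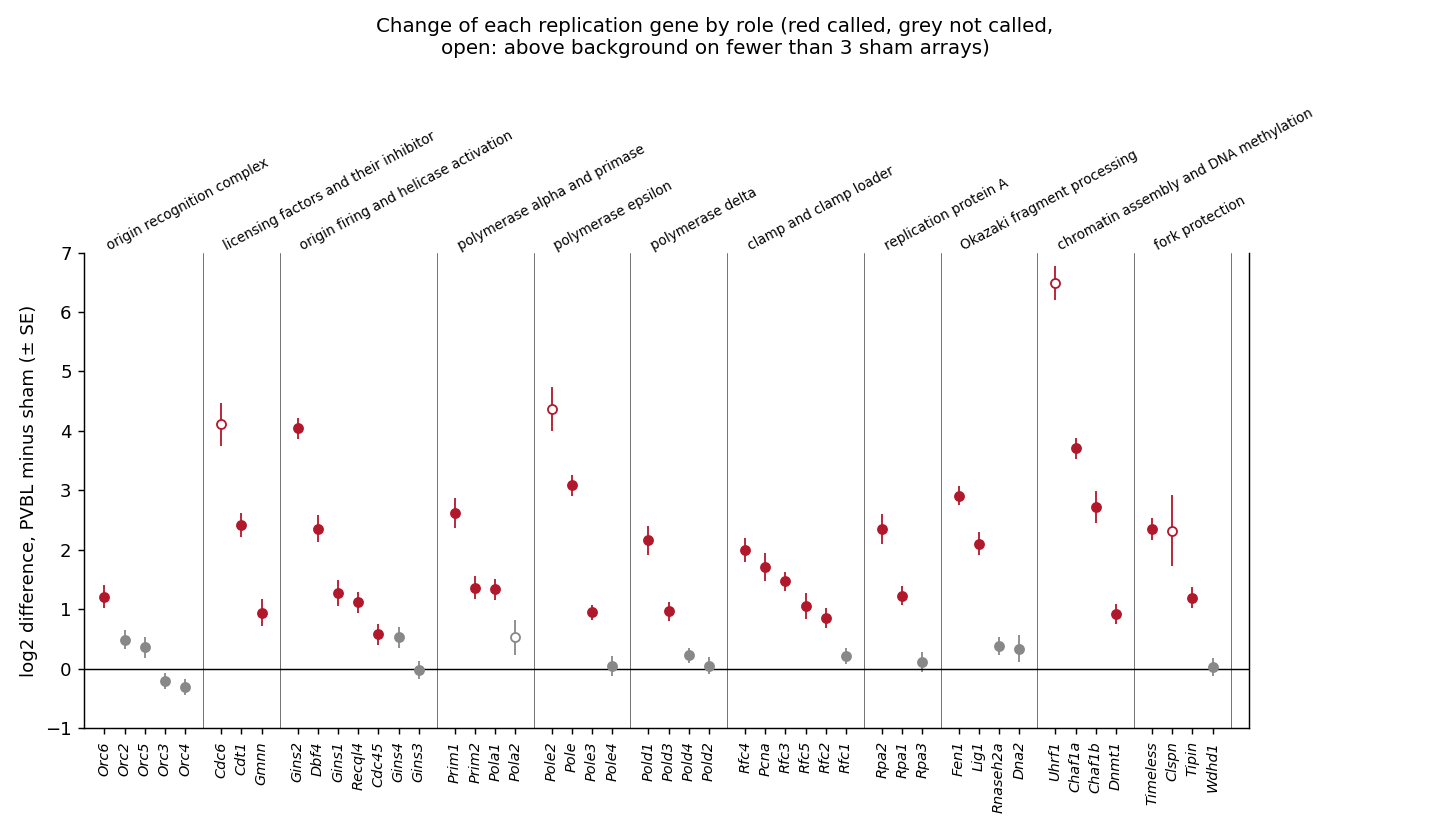
Log2 difference between PVBL and sham (vertical axis, bars are limma's SE, n = 3 per group) of each replication gene, grouped by role along the horizontal axis. Subunits of 1 complex stand apart, as Gins2 at 4.05 and Gins3 at -0.019, and Pole at 3.09 and Pole4 at 0.053. The points of Cdc6, Pole2 and Clspn are fitted against sham signals not above background and are no measured size.

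Genes of the 3 replicative polymerases also rose in part. Prim1, the catalytic primase subunit that makes the RNA primers, had levels of 3.36, 3.90 and 3.04 in PVBL and 1.03, 0.49 and 0.91 in sham and rose 6.17-fold (log2 difference 2.63 ± 0.25, SE, n = 3 per group, adjusted p = 0.000535). Prim2, the large primase subunit, and Pola1, the catalytic subunit of polymerase alpha, rose 2.58-fold and 2.53-fold (adjusted p = 0.00262 and 0.00225). The accessory subunit gene Pola2 was dim, above background on 2 of 3 sham arrays, with overlapping groups (log2 difference 0.53 ± 0.29, adjusted p = 0.195, 95% interval -0.15 to 1.21), and stood at -0.05 with normexp.

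Pole, the catalytic subunit of polymerase epsilon, had levels of 2.05, 2.35 and 1.86 against -0.97, -0.81 and -1.23 and rose 8.50-fold (log2 difference 3.09 ± 0.17, SE, n = 3 per group, adjusted p = 4.47e-05). A second Pole probe was below background on all arrays. Pole2, its second subunit, was dark on all sham arrays, with levels of -0.85, -0.31 and -0.89 in PVBL and -5.12, -4.26 and -5.75 in sham. It was at least 11.6-fold higher on the scanner's signal (adjusted p = 0.000316) and 3.12-fold with normexp. Pole3, a histone-fold subunit, rose 1.94-fold (adjusted p = 0.00225). The histone-fold partner gene Pole4 had levels of 2.92, 3.43 and 3.07 against 2.98, 3.01 and 3.27, which overlap (log2 difference 0.053 ± 0.17, adjusted p = 0.827, 95% interval -0.35 to 0.45). In polymerase delta, Pold1, the catalytic subunit, rose 4.47-fold (log2 difference 2.16 ± 0.24, SE, n = 3 per group, adjusted p = 0.00105), from 0.016, 0.00014 and -0.63 in sham to 1.73, 2.32 and 1.80 in PVBL. Pold3 rose 1.95-fold (adjusted p = 0.00590). Of the remaining subunits neither gene was called, Pold2 standing at 0.051 ± 0.14 with overlapping groups and Pold4 at 0.23 ± 0.13 without overlap.

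The sliding clamp and its loader rose but for 1 subunit gene. Pcna, the clamp that tethers polymerases to DNA, had levels of 4.96, 5.71 and 4.85 in PVBL and 3.57, 3.47 and 3.34 in sham, PVBL 2 being the brightest, and rose 3.28-fold (log2 difference 1.71 ± 0.23, SE, n = 3 per group, adjusted p = 0.00249). Of the loader genes, Rfc4, Rfc3, Rfc5 and Rfc2 rose 3.99-fold, 2.78-fold, 2.07-fold and 1.80-fold (adjusted p = 0.000758, 0.000933, 0.0117 and 0.0109). A further Rfc4 probe agreed at 3.90-fold. The large subunit gene Rfc1, with 2.57, 2.68 and 2.44 in PVBL and 2.51, 2.34 and 2.18 in sham, had overlapping groups and was not called (log2 difference 0.22 ± 0.14, adjusted p = 0.258, 95% interval -0.11 to 0.54).

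Replication protein A coats single-stranded DNA as a trimer. Rpa2, its middle subunit, had levels of 1.92, 1.60 and 0.93 in PVBL and -0.84, -0.79 and -0.99 in sham and rose 5.11-fold (log2 difference 2.35 ± 0.25, SE, n = 3 per group, adjusted p = 0.000872). Rpa1, the large subunit, rose 2.35-fold, from 3.31, 3.29 and 3.21 to 4.37, 4.80 and 4.33 (adjusted p = 0.00198). The smallest subunit gene, Rpa3, had overlapping groups (log2 difference 0.11 ± 0.16, adjusted p = 0.611, 95% interval -0.27 to 0.50).

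Of the genes that finish Okazaki fragments, the short pieces of the lagging strand, Fen1 and Lig1 rose. Fen1, the nuclease that removes primer flaps, had levels of 3.54, 4.002 and 3.49 in PVBL against 0.76, 0.79 and 0.74 in sham, where the 3 values were nearly equal, and rose 7.54-fold (log2 difference 2.91 ± 0.16, SE, n = 3 per group, adjusted p = 3.88e-05). Lig1, the ligase that seals the nicks, rose 4.31-fold (log2 difference 2.11 ± 0.19, SE, n = 3 per group, adjusted p = 0.000404), with 3.30, 3.92 and 3.30 against 1.44, 1.36 and 1.40. Dna2, a nuclease for long flaps, was not called (log2 difference 0.34 ± 0.23, adjusted p = 0.282, 95% interval -0.20 to 0.88), nor was Rnaseh2a, the catalytic subunit of an RNase H that removes RNA from DNA (log2 difference 0.39 ± 0.15, adjusted p = 0.0835, 95% interval 0.039 to 0.74). Both were called without PVBL 3 (0.57 and 0.51) and with array weights (0.42 and 0.42), and Rnaseh2a also with normexp (0.43) and median scaling (0.52). Its call in the authors' deposited value table (0.42) adds no support, since 4407 of the 4522 genes there were called. Of the 4 Rnaseh2a probes, which ran from 1.24-fold to 1.34-fold, 1 was called when tested alone.

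All 4 genes of chromatin assembly and methylation behind the fork rose. Uhrf1, which recognises half-methylated DNA and recruits the methyltransferase, had the largest difference of the 48, with levels of 2.52, 3.35 and 2.48 in PVBL and -3.76, -3.33 and -4.02 in sham. Of the sham arrays, 1 did not have it above background. The rise was 89.8-fold on the scanner's signal (log2 difference 6.49 ± 0.28, SE, n = 3 per group, adjusted p = 1.42e-05) and 17.9-fold with normexp. Its signals of 23.3, 29.9 and 12.5 units in sham 1 to 3 stood near the lowest counted as well above background there (15.5, 16.1 and 11.9). A probe for another transcript of the gene, dark in sham, was also called higher, at a smaller fitted log2 difference (3.36). The methyltransferase gene Dnmt1 rose far less, 1.89-fold, from -1.37, -1.40 and -1.21 to -0.58, -0.062 and -0.57 (adjusted p = 0.00828). Chaf1a and Chaf1b encode subunits of chromatin assembly factor 1, which places new histones on copied DNA. Chaf1a had levels of 1.10, 1.54 and 1.01 against -2.61, -2.58 and -2.30 and rose 13.1-fold (log2 difference 3.71 ± 0.18, SE, n = 3 per group, adjusted p = 2.03e-05), and Chaf1b rose 6.57-fold (log2 difference 2.72 ± 0.27, adjusted p = 0.000645), with 3.00 ± 0.29 at its other probe.

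Genes that hold the stalled fork together were split. Timeless, which travels with the helicase, had levels of 1.76, 2.17 and 1.77 in PVBL and -0.45, -0.20 and -0.72 in sham and rose 5.12-fold (log2 difference 2.36 ± 0.19, SE, n = 3 per group, adjusted p = 0.000226), or 3.47-fold with another probe. Its binding partner Tipin rose 2.29-fold (adjusted p = 0.00307). Claspin (Clspn), the mediator of the fork checkpoint, was dark on all sham arrays and near background in PVBL, at -3.73, -2.85 and -3.46 against -6.47, -6.36 and -4.19. It was at least 1.83-fold higher on the scanner's signal (adjusted p = 0.0250). That call, at a fitted log2 difference of 2.32, was lost with normexp (0.21) and without the dim-probe filter. It was also lost without PVBL 2, sham 1 or sham 2 (1.92 to 2.07). These are log2 differences fitted against sham signals not above background, and no measured size. Wdhd1, which links the helicase to polymerase alpha, had overlapping groups at -0.42, -0.70 and -0.78 in PVBL and -0.86, -0.53 and -0.60 in sham (log2 difference 0.032 ± 0.15, adjusted p = 0.882, 95% interval -0.33 to 0.39).

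The unequal change of partners was measured within each array, where the scaling between arrays drops out. Of 25 pairs of partner genes, which were chosen with earlier results of these data known, 18 had both genes above background on all 6 arrays. With the brightest probe of each gene, the log2 ratio did not overlap between PVBL and sham in any of the 18. Ratios with other probes were not taken. Other tested probes had log2 differences of 0.0068 for Orc4 (against -0.30), 1.79 for Timeless (against 2.36), 3.00 for Chaf1b (against 2.72) and 1.97 for Rfc4 (against 2.00). The same held for 50.9% of all pairs that can be formed from the genes above background on all arrays. The exact two-sided permutation test gave p = 0.1 for every pair (0.1 adjusted over the 18), the smallest that 3 against 3 samples allow, so none can pass a threshold of 0.05. The ratio of Gins2 to Gins3 was -2.93, -2.61 and -2.82 on the PVBL arrays and -7.01, -6.90 and -6.65 on the sham arrays (change 4.07 ± 0.14, SE, n = 3 per group). Pole moved by 3.04 ± 0.23 against Pole4 and Pold1 by 1.93 ± 0.25 against Pold4. Rpa3, which was not called, lagged behind Rpa1, with ratios of -1.33, -1.29 and -1.30 on the PVBL arrays and -0.24, -0.28 and -0.041 on the sham arrays (change -1.11 ± 0.076). Genes that both rose also did so by different amounts. Lig1 lost against Fen1 (change -0.81 ± 0.059), Cdt1 gained against its inhibitor Gmnn (1.47 ± 0.25), and Timeless gained against Tipin (1.16 ± 0.19). The smallest change was that of Orc5 against Orc4 (0.67 ± 0.20). The order of Chaf1a and Chaf1b depended on the background correction, at 1.00 ± 0.28 with the scanner's signal and -0.14 with normexp. The size of other ratios depended on it too, as for Gins2 and Pole, whose own log2 differences were 3.09 and 2.55 with normexp against 4.05 and 3.09.

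**Figure D4:**
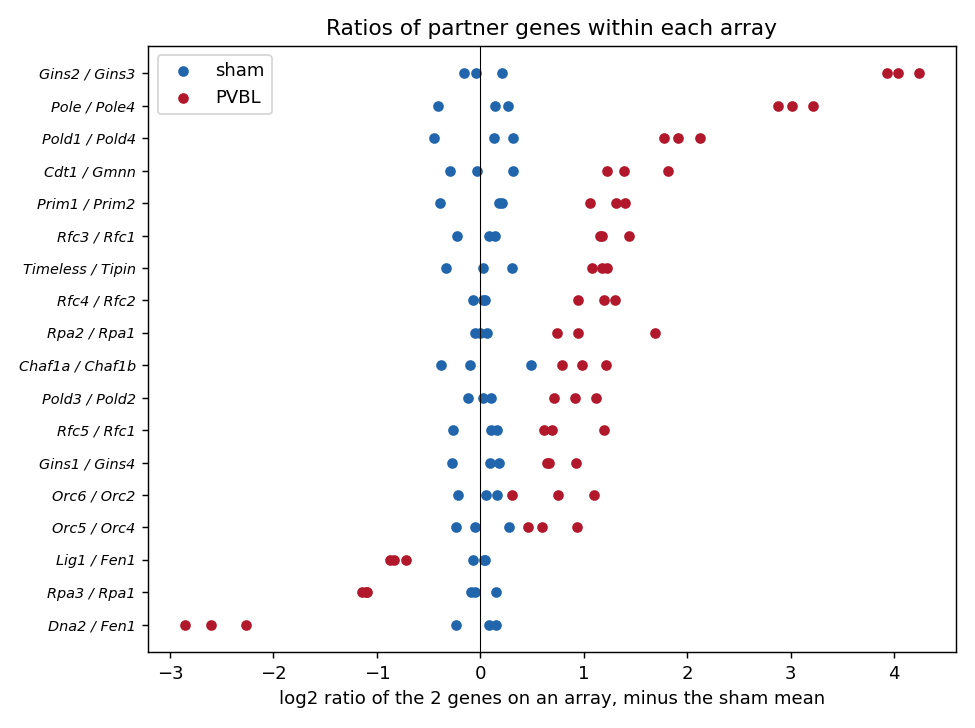
Log2 ratio of 2 partner genes on the same array, minus its mean over the sham arrays (horizontal axis), for the 18 pairs (rows) on the 3 sham arrays (blue) and 3 PVBL arrays (red). With the brightest probe of each gene no pair overlaps between the groups, and the changes run from -2.57 for Dna2 over Fen1 to 4.07 for Gins2 over Gins3.

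The 3 PVBL samples differed among themselves in the same way for most of the genes. Of the 43 genes above background on all arrays, 39 were highest in PVBL 2 among the PVBL arrays (90.7%) and 33 lowest in PVBL 3 (76.7%), against 42.4% and 49.6% of all 12561 such genes. Taken against each gene's sham mean, the median of the 43 stood at 0.97, 1.53 and 0.85 in PVBL 1, 2 and 3, and between -0.03 and 0.03 on the sham arrays. The place of PVBL 2 held with median scaling (39 of 43), against 39.4% of all genes. With scaling on spike-in probes PVBL 1 was highest for 32 of the 43 (74.4%, against 82.3% of all genes) and PVBL 2 for 11 (25.6%, against 2.24%). PVBL 3 was lowest for 28 with median scaling (65.1%, against 43.1%) and for 36 with spike-in scaling (83.7%, against 29.7%). Leaving PVBL 2 out lowered the median of the 48 from 1.21 to 1.01.

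How large the changes were depended on the background correction for dim genes. Normexp models each spot's signal and local background and then adds 50 units, while the dimmest probe counted as well above background had 11.9 to 23.8 units, depending on the array. With it, 33 genes were again called and the median was 1.09. Folds over 1.5 times smaller were found for 7 of the 33, namely Uhrf1 (17.9-fold), Gins2 (8.51-fold), Chaf1a (5.61-fold), Pole2 (3.12-fold), Dbf4 (2.59-fold), Cdc6 (2.09-fold) and Clspn (1.16-fold). The normexp folds of Cdc6, Pole2 and Clspn lay below the bounds given for them above. Genes with bright sham signals moved less, Pcna being 3.51-fold, Fen1 6.79-fold and Rfc4 3.93-fold higher.

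**Figure D5:**
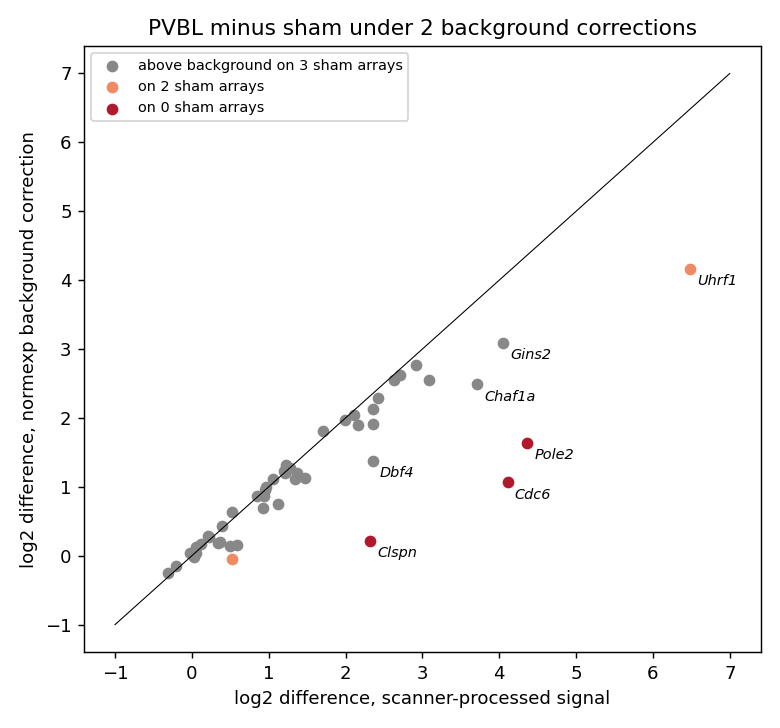
Log2 difference between PVBL and sham with the scanner's processed signal (horizontal axis) and with normexp background correction (vertical axis) for the 48 replication genes, coloured by the number of sham arrays on which the gene was above background. Gins2 (4.05 against 3.09) and Chaf1a (3.71 against 2.49), measured on all arrays, lie below the diagonal, and the points of the 3 genes dark on all sham arrays are fitted values with no measured size in sham.

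Other genes of replication, taken as 9 lists of 80 genes in all, had 31 of 76 tested called higher (40.8%, against 15.1% of all genes) and 5 called lower (6.58%, against 17.8%), with a median log2 difference of 0.24. The MCM helicase and its partners had the largest median log2 difference of the 9 lists, 3.12, with 7 of 9 tested genes higher and 1 lower. Mcm5, Mcm6 and Mcm2, subunits of the helicase ring, were 32.3-fold, 19.0-fold and 12.9-fold higher (17.3-fold, 18.3-fold and 7.66-fold with normexp). Mcm10, an initiation factor, fell by 1.25 ± 0.26 (adjusted p = 0.0116). Its only probe was bright in sham, with levels of 6.11, 5.86 and 6.41 against 5.16, 5.13 and 4.34 in PVBL. Whether that signal is all Mcm10 RNA was not tested. Of 10 partners of initiation 7 rose and none fell, among them Fbxo5, an inhibitor of the anaphase-promoting complex, 6.60-fold (3.92-fold with normexp), Ccne1, cyclin E1, 6.21-fold, and Topbp1, which helps CDC45 to load, 3.54-fold. Among 11 histone chaperones 5 rose, with Asf1b at 26.5-fold (8.09-fold with normexp), Tonsl at 4.65-fold and Nasp at 1.78-fold. Of these 5, Rbbp7 and Hira (1.63-fold and 1.32-fold) are named after their values were seen, as are the genes in the next paragraph that were dark on all or some sham arrays.

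Of 8 alternative clamp loaders and clamp partners 4 rose, with Atad5, which unloads the clamp, at 3.03-fold (1.63-fold with normexp) and Chtf8 at 1.43-fold. The others were Dscc1, at least 12.3-fold higher on the scanner's signal (3.22-fold with normexp), and Chtf18, dark on 1 sham array (34.8-fold, 8.42-fold with normexp). Of 8 other RNase H, ligase and nuclease genes 3 rose, with Rnaseh2b at 1.85-fold and Lig4 at 1.71-fold. Exo1 was at least 24.05-fold higher on the scanner's signal (4.56-fold with normexp). Of 11 translesion and repair polymerases 3 rose (27.3%, against 15.1% of all genes), Polk being 1.88-fold higher and Polh 2.57-fold (1.25-fold with normexp). Polq was at least 5.10-fold higher on the scanner's signal (1.94-fold with normexp), and 2 of this list were called with normexp. Of 5 topoisomerases 1 rose and 1 fell (20% each, near the 15.1% and 17.8% of all genes). The riser was Top2a, which untangles copied chromosomes and was dark in sham. Top2a was at least 33.1-fold higher on the scanner's signal (6.47-fold with normexp). Top2b fell by 0.70 ± 0.15 (adjusted p = 0.0142). Of 6 other genes of DNA methylation none rose and 2 fell (33.3%, against 17.8% of all genes). These were the methyltransferase gene Dnmt3a, by 0.84, and the dioxygenase gene Tet2, by 0.79 (adjusted p = 0.0318 and 0.0211). Of 8 genes of mitochondrial DNA replication 1 rose (12.5%, near the share of all genes), Mgme1 (1.42-fold, adjusted p = 0.0456), and 1 fell, Polg2, the accessory subunit of the mitochondrial polymerase, by 0.98 ± 0.14 (adjusted p = 0.00260), with a median of -0.11. With spike-in scaling, which moved the median of all genes from -0.10 to 0.31, none of the 5 falls was called (-0.83 for Mcm10, -0.28 for Top2b, -0.43 for Dnmt3a, -0.38 for Tet2 and -0.57 for Polg2). The call of Mgme1 was lost with normexp (0.20), with spike-in scaling and without any 1 array but PVBL 3 (0.37 to 0.58). That of Dnmt3a was lost with median scaling (-0.71) and without PVBL 1 or any 1 sham array (-0.91 to -0.83). Top2b lost its call without PVBL 1 (-0.63), Tet2 without PVBL 2 or sham 2 (-0.69 and -0.83), and Chtf8 without sham 1 or sham 2 (0.48 and 0.52) and with spike-in scaling. Without the dim-probe filter the calls of Mgme1, Dnmt3a, Tet2 and Chtf8 were lost as well.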

How the data were processed

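RNA of 6 liver samples, 3 PVBL and 3 sham as their source names give them, was measured on 1 array each. The deposited scanner files hold intensity values per spot, made per the file headers with Agilent Feature Extraction 10.7.3.1, while the submitters' processing notes name version 9.1. Background was corrected by that software, per the file headers. The authors' deposited value table holds log2 values. These matched the scaled scanner values after each probe had been centred on its median (r of at least 0.9997), so scale, centring and direction are settled and only the unscaled level is lost. The medians of its columns were -0.18, -0.15 and -0.22 in PVBL and 0.17, 0.15 and 0.18 in sham. In 100% of its 7849 matched rows the groups did not overlap, against 30.6% of all probes, so it served only as an alternative.

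Log2 of the processed signal was averaged over the spots of a probe after control spots (3671) and outlier spots (115 to 201 per array) were left out, and each array's 75th percentile was subtracted. A probe was tested if every array of either group had it well above background (27909 of 55681). Symbols came from matching RefSeq accessions to a RefSeq gene table (GRCm38.p6), found for 26413 probes, and the brightest probe stood for a gene. The test was that of limma 3.58.1 (lmFit and eBayes, two-sided, run in R 4.3.3) with Benjamini-Hochberg adjustment over 13582 genes. Probe-level tests were adjusted over all 17522 named probes tested. A gene dark in a group has a lower bound, the bright mean against, per array, the higher of its own signal and the lowest signal well above background. This bound is for the scanner's signal, and with normexp the fold of every gene given a bound here was smaller than it. For normexp the median spot signal was used in place of the mean signal that had been planned, since the files analysed carry the median. In the alternatives that change the background, the scaling or the samples, the tested probes were kept. The fit was tested on simulated data. Members, lists and pairs were chosen with earlier results of these data known. Every member is named. Of the other lists, up to 3 called genes with the largest difference among those above background on all arrays are named, and any called gene that moved against its list.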

Additional observations from a re-analysis of the deposited data

How the results depend on the processing

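The count of replication genes called higher stayed within 30 to 38 of 48 under every setting run on all 48, and was 31 of 43 with only probes above background on all arrays, 31 of 50 without a filter and 32 of 32 in the authors' value table, in whose rows the groups never overlapped. No member was called lower except with array weights, where 1 was, Orc4 (-0.34), whose other probe stood at 0.0068 in the main setting. The median of the members was 1.62 with spike-in scaling and 1.85 in the authors' table, and 1.01 to 1.30 with 1 array left out. The count over all genes was 2191 with spike-in scaling and 7816 with array weights, and 2407 to 4773 with 1 array left out, lowest without sham 1 and 2846 without sham 2. The companion genes called lower numbered 0 with spike-in scaling, 3 without the filter, 9 with array weights, 8 in the authors' table, and 3 to 6 with 1 array left out. Of all genes 2639 were higher and 1559 lower with median scaling, against 2053 and 2423, and 1937 and 254 with spike-in scaling.

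Differences of some members that were not called changed sign, all without a call. Most of these stood near 0 in the main setting, but Pola2 stood at 0.53, Orc4 at -0.30 and Orc3 at -0.20. Gins3 was 0.11, 0.047, 0.054 and 0.39 with median scaling, normexp, quantile and spike-in scaling, Orc3 and Orc4 were 0.21 and 0.11 with spike-in scaling, Pola2 -0.049 and Wdhd1 -0.012 with normexp, and Pole4 -0.074 with array weights. With 1 array left out Gins3 ran from -0.11 to 0.086, Pold2 from -0.055 to 0.14, Pole4 from -0.092 to 0.16, Rpa3 from -0.046 to 0.20 and Wdhd1 from -0.076 to 0.10. The ratio of Chaf1a to Chaf1b was -0.14 with normexp. The labels' replicate numbers did not pair the samples (correlations of same-numbered arrays' deviations from their group means were 0.17, -0.063 and 0.19), and PVBL 3 alone correlated best with the sham array of its own number. With the replicate block 32 members and 3804 genes were called, and Cdc45 lost its call. Slide as a block was not run because all arrays lay on 1 slide. The depth is limited by the signal over background, which leaves Orc1 and Cdc7 untested and gives Cdc6, Pole2 and Clspn only a bound that depends on the background correction.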
